A study of Mus musculus with 4 samples.

Results

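The UDP-glucuronosyltransferases (Ugt), glutathione S-transferases (Gst) and sulfotransferases (Sult) of the liver, the conjugating enzymes of phase II metabolism, were described in microsomic (M) and control (C) mice. Members were the genes of the array whose name opens with Ugt and a digit, with Gst, a lower-case letter and a digit, or with Sult and a digit. This gave 53 of 36161 gene names, 15 Ugt, 21 Gst and 17 Sult, read by 73 probes. Of these, 51 had a probe without an outlier flag, 41 were well above background on all 4 arrays and 50 on at least 1. Only flagged probes read Gstm5 and Sult2a2, and Sult6b1 was well above background on no array.

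Microsomia was defined in the study as a weight below the 10th percentile of the inbred colony for the sex. Controls were littermates whose weight lay within 1 SD of the colony mean. No treatment or allele set the groups apart, and the labels do not say which animals of the arrays were littermates. There were 4 groups with a single array apiece, MF and MM for female and male M mice and CF and CM for female and male C mice, all from whole liver of C57BL/6J mice at embryonic day 20 by the sample labels. The methods give newborn C57BL/6 N mice and several experiments per group, and neither source says how many animals an array holds. Total RNA labelled with Cy3 was read on Agilent arrays in 1 colour. With 1 array per group no value has a replicate error, and no difference between a pair of arrays was tested.

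Phase II enzymes attach a polar group to a drug, hormone, bile acid or waste product so that it can leave the cell and the body. Ugt enzymes transfer glucuronic acid in the endoplasmic reticulum, Gst enzymes transfer glutathione, mostly in the cytosol, and cytosolic Sult enzymes transfer a sulfonate group from the donor PAPS. The liver is the main organ of all 3 reactions, and many of these genes are switched on around birth and differ between the sexes in adult mice. Sult2a enzymes act on bile acids and dehydroepiandrosterone, and in adult mouse liver their transcripts are known to be far more abundant in females.

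Levels are log2 ratios of a probe's processed signal to the 75th percentile of its array, so that 0 is the 75th percentile itself. They compare arrays for a given probe and do not rank genes. A gene was counted when its brightest unflagged probe differed more than 1.5-fold. Where a probe could not be told from background on an array, a limit replaced any reading below it. This limit was the lowest reading of any probe called well above background on that array. The difference is then smaller than by the reading itself, and is given as at least that value. It is a bound under this scaling only, and other scalings can give smaller values. A reading above the limit was kept, and its difference rests on a signal not told from background. The 75th percentile lay between 628 (CM) and 925 (MM) intensity units, and between 56.1% and 65.3% of the spots were well above background. Probes printed at 10 spots had a median SD between 0.18 and 0.26 (log2) within an array (267 probes), which gives 0.32 for a difference between 2 spots; this is spot error only.

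The hepatocyte list was well above background on every array for all 9 of its measured genes, with a summed log2 level of 12.67 on CF, 12.81 on MF, 12.81 on CM and 12.17 on MM. The female transcript Xist was well above background on MF and CF only, and Ddx3y, Eif2s3y and Uty on MM and CM only. Genes of other organs stood out on single arrays. All 8 heart genes were well above background on CF and CM, 6 on MF and 7 on MM, and their summed log2 level was 7.46 on CF, -0.23 on MF, 1.40 on CM and 0.02 on MM. The 10 intestine genes summed to 7.16 on CF, 8.03 on MF, 7.01 on CM and 7.14 on MM, and Cdh17 was well above background on MF alone. Tff3 of this list read 7.05 on CF, 7.40 on MF, 6.86 on CM and 6.67 on MM, so these sums mostly follow it. The kidney list ranged from -0.20 (CF) to 1.94 (CM), with Slc12a1 and Slc12a3 not well above background anywhere, the exocrine pancreas list from 3.74 (MF) to 5.48 (MM), the adrenal list from 0.15 (MM) to 1.43 (CF), the lung list from -1.16 (MF) to -0.82 (CM) and the erythroid list from 10.5 (MM) to 11.4 (CF). Each of these bears on comparisons with that array, and their part in the results below was not tested. In whole liver, fewer cells of a type and less RNA per cell cannot be told apart.

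The arrays read each gene through probes of 60 bases, and several members have near-identical copies in the same gene cluster. The following 30-base stretches, lined up between the probes of Sult2a1 (chr7:14381602-14381661), Sult2a4 (chr7:14495026-14495085) and Sult2a2 (chr7:14364926-14364985, a flagged probe), are shown because large differences were read there. Capitals mark bases that differ from the Sult2a1 probe.
Sult2a1: tatcttgaatacctagatgtggtcatagaa
Sult2a4: tatcttgaatacctagatgtggtcatagaa
Sult2a2: tatcttgaatacctGAatAtggtcatagaa
Over their whole overlap the Sult2a1 and Sult2a4 probes were identical at 51 of 54 bases, and the Sult2a1 and Sult2a2 probes at 54 of 59. The probes of Sult2a6 (chr7:14807923-14811254, across an intron) and Sult2a3 (chr7:14652904-14652927 for the part the annotation places) read other stretches, and neither was identical to the probe of any other member at 80% or more of an overlap of at least 40 bases.
Sult2a6: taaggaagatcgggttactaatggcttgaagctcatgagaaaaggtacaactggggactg
Sult2a3: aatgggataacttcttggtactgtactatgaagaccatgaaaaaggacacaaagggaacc
The probes of Gsta1 (chr9:78090411-78090470) and Gsta2 (chr9:78178856-78178915) were identical at 46 of 50 bases, and differ from each other within these 30 bases at the capitals.
Gsta1: ctggcctctaatggtttgcaattataaaaa
Gsta2: ctggcctctaatTgtttgcaattataaaaT
Across all members 5 pairs of probes of different genes, from 7 genes, reached this identity. The pairs not given above were Sult2a2 with Sult2a4 (47 of 53 bases) and Ugt2b37 with Ugt2b5 (46 of 55 bases). Values of such pairs are uncertain, since a probe may also bind the transcript of the copy. Positions come from the annotation of the array (mm9).

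In females, 28 of 48 members compared (58.3%) lay more than 1.5-fold from control, 18 higher and 10 lower in MF, where the share over all genes was 40.9% (19.9% higher, 21.1% lower). In males, 30 of 49 (61.2%) did, 22 higher and 8 lower in MM, against 40.8% of all genes (17.7% higher, 23.1% lower). The split was 27 higher and 9 lower in females, and 36 higher and 4 lower in males, when the deposited signals were compared without scaling between arrays. That scaling sets all genes apart as well, with a median over all genes of 0.32 in females and 0.53 in males against -0.08 and -0.03 here. Over the 41 members well above background everywhere, the median log2 difference was 0.27 in females and 0.52 in males. The female median turned to -0.06 after quantile normalization. The families differed in direction. Gst members were mostly higher in MF (10 higher, 1 lower of 19), Ugt members mostly higher in MM (9 higher, 1 lower of 15), and Sult members went both ways in MF (4 higher, 7 lower of 14, with 4 of the 7 from Sult2a) and in MM (5 higher, 4 lower of 14).

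**Figure D1:**
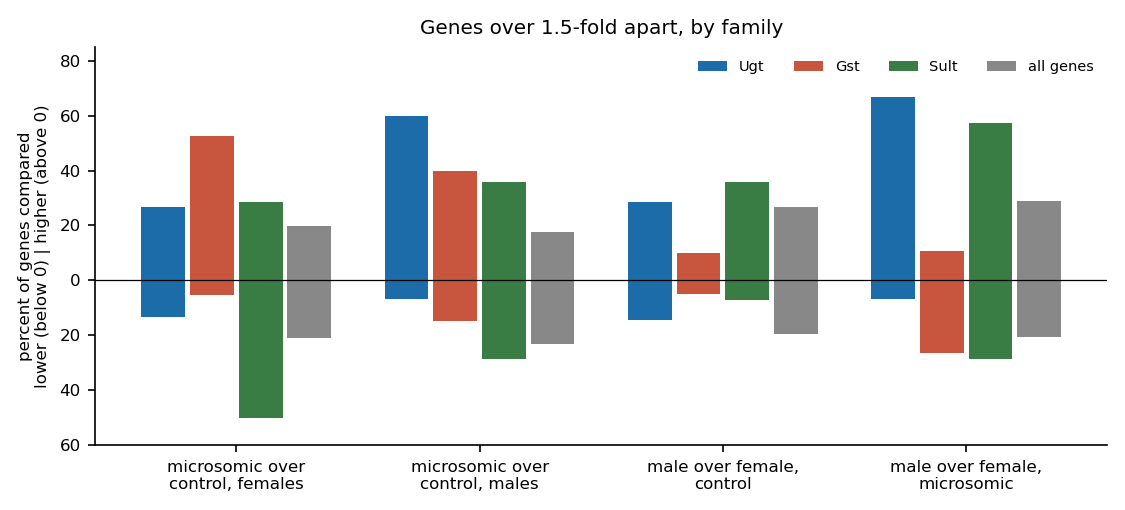
Share of genes more than 1.5-fold apart (percent of genes compared, higher above 0 and lower below 0) in each of 4 comparisons, for Ugt, Gst and Sult members and for all genes. The tallest bars are those of Ugt, with 10 of 15 higher in microsomic males than microsomic females and 9 of 15 higher in microsomic than control males.

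**Figure D2:**
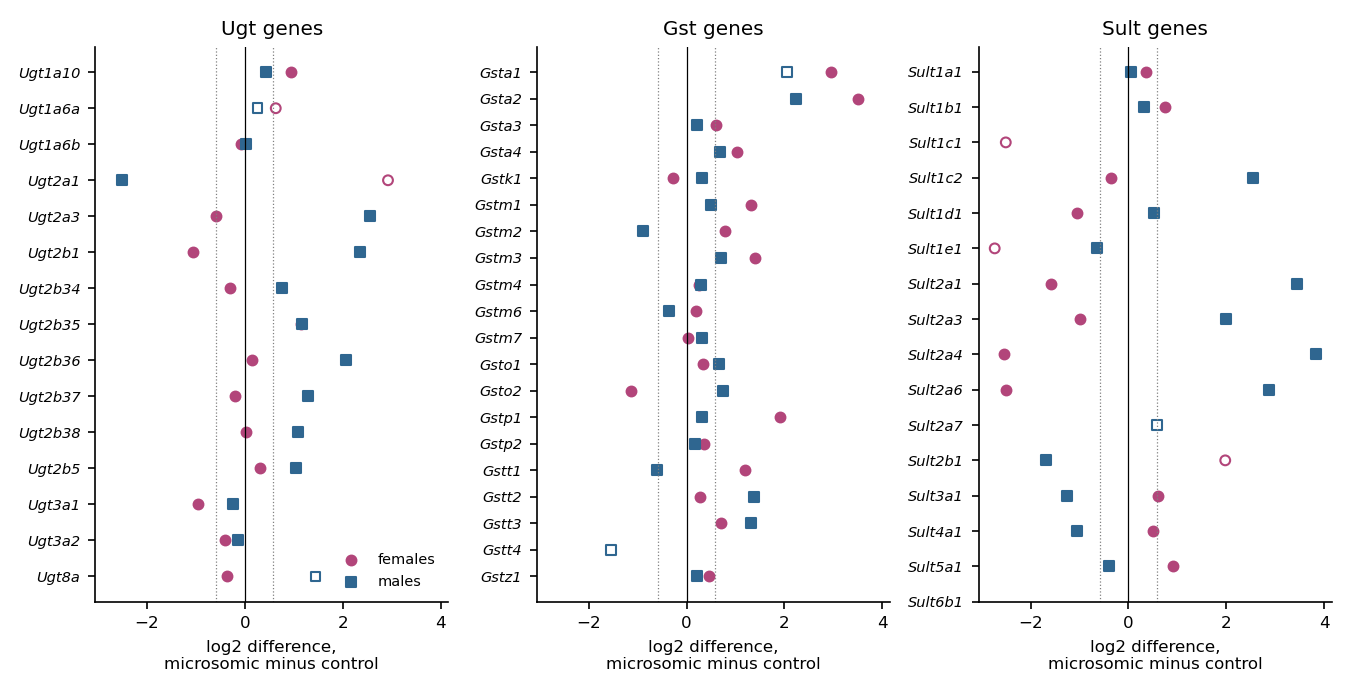
Log2 difference, microsomic minus control, of each member in females (circles) and males (squares), with 1 array per group and no error bars. Open symbols are differences with 1 array not well above background, and dotted lines mark 1.5-fold. Members without a symbol were not well above background on either array. The circle of Ugt2b35 lies under its square. Sult2a squares lie far right and their circles left of 0, while both Gsta1 and Gsta2 symbols lie right.

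In males, and between MM and MF, Sult2a4, Sult2a1 and Sult2a6 had larger differences than any other member. Sult2a4 had a log2 level of 0.72 on CF, -1.82 on MF, 0.57 on CM and 4.40 on MM. Sult2a1 read 2.81 on CF, 1.22 on MF, 2.29 on CM and 5.74 on MM. Sult2a6 read 2.62 on CF, 0.11 on MF, 3.13 on CM and 6.01 on MM. In all 3 the MM array was the highest and the MF array the lowest, with both controls in between. Sult2a3, at lower signal, kept this order, with -1.86 on CF, -2.86 on MF, -0.61 on CM and 1.38 on MM.

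MM exceeded CM 14.2-fold in Sult2a4 (log2 difference 3.83), 10.9-fold in Sult2a1 (3.45), 7.34-fold in Sult2a6 (2.88) and 4.0-fold in Sult2a3 (2.0). MF lay below CF by 5.81-fold in Sult2a4 (-2.54), 5.70-fold in Sult2a6 (-2.51), 3.01-fold in Sult2a1 (-1.59) and 1.99-fold in Sult2a3 (-0.99). After normexp with quantile normalization Sult2a3 was no longer past 1.5-fold in females (-0.23) and was 1.19 in males, while Sult2a4 and Sult2a6 were 4.59 and 3.88 in males. Sult2a6 had another probe well above background on all 4 arrays, with log2 differences of -1.73 in females and 3.37 in males, and these probes share 40 of 42 overlapping bases. The mean over its 3 probes, of which the third was well above background on MM alone, gave -1.21 and 3.57. Sult2a7 was well above background on MM alone, 0.58 above its limit on CM. On MM, where these genes were highest, the summed level of the hepatocyte list was 0.64 lower than on CM. Within that list Apob was 0.97 higher on MM. Each other measured gene was lower, from -0.18 (Apoa1) to -1.12 (Trf).

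Among the remaining sulfotransferases, Sult1e1, which inactivates estrogens, read -3.08 on CF, -5.81 on MF (not well above background), -3.62 on CM and -4.26 on MM. It was 6.64-fold lower in MF than CF by this dim MF reading, and 1.56-fold lower in MM than CM. It was the only member past 1.5-fold lower in both sexes. The male call was lost under all 4 other scalings, with log2 differences from -0.05 to -0.41. The female difference was -0.76 after normexp with quantile normalization. Sult1c2 was 5.88-fold higher in MM than CM (-0.30 against -2.85), with little difference between MF and CF (-4.41 and -4.05). Sult1a1, a phenol sulfotransferase, stayed near 6 on every array, between 6.02 and 6.44. Its second probe gave a log2 difference of -0.82 in females where the brightest gave 0.37. Sult1d1, a catecholamine sulfotransferase, was lower in MF by both of its probes (-1.06 and -1.20), while in males they read 0.52 and -0.73.

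Sult2b1, a cholesterol sulfotransferase, and Sult3a1 went the other way from Sult2a. Sult2b1 read -4.86 on CF (not well above background), -2.88 on MF, -3.52 on CM and -5.20 on MM. MF exceeded the dim CF reading 3.94-fold, and MM was 3.20-fold lower than CM. After normexp with quantile normalization the Sult2b1 differences were 0.91 and -0.74. Sult3a1 was 1.53-fold higher in MF and 2.38-fold lower in MM, and both calls were lost after normexp with quantile normalization (0.22 and -0.11). Sult1b1 and Sult5a1 were higher in MF (1.69-fold and 1.89-fold), Sult4a1 was lower in MM (2.06-fold), and Sult1c1 was well above background on CF alone, at least 5.68-fold over MF. The Sult1c1 difference was -0.62 after normexp with quantile normalization and -3.71 without the filter on dim probes, and the male Sult4a1 call was lost after normexp with quantile normalization (-0.47) and without scaling (-0.48).

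**Figure D3:**
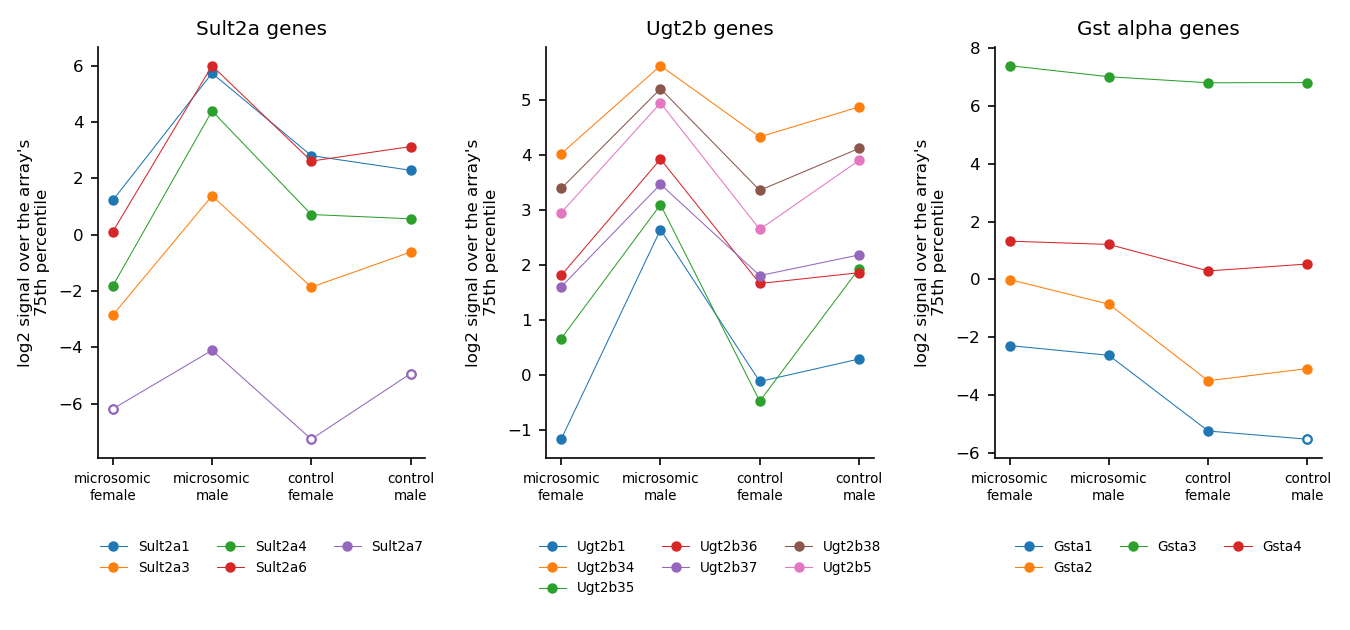
Log2 signal over the 75th percentile of the array for the Sult2a, Ugt2b and Gst alpha genes on each of the 4 arrays; points are single arrays, open points were not well above background, and lines join the points of a gene only to guide the eye. All Sult2a and Ugt2b genes are highest on the microsomic male array, and Gsta1 and Gsta2 are higher on both microsomic arrays than on both controls.

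Ugt2b genes, whose enzymes glucuronidate steroids, bile acids and drugs, were all higher in MM than CM. The 7 differences ran from 0.75 (Ugt2b34) to 2.35 (Ugt2b1), with a median of 1.16, and 7 of 7 passed 1.5-fold where 17.7% of all genes were higher. The 7 remained past 1.5-fold under every scaling and probe choice tried, and 6 passed 2-fold. In females the median was 0.03, with Ugt2b35 higher and Ugt2b1 lower past 1.5-fold.

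Ugt2b1 read -0.12 on CF, -1.17 on MF, 0.29 on CM and 2.65 on MM, 5.12-fold higher in MM than CM and 2.07-fold lower in MF than CF. With the trend of position on the array removed the female difference was -0.53, under 1.5-fold, and after normexp with quantile normalization the male difference was 3.11. It thus shared the order of the Sult2a genes, with MM highest and MF lowest. Ugt2b36 read 1.67 on CF, 1.81 on MF, 1.86 on CM and 3.93 on MM, so that MM alone stood apart, 4.19-fold over CM. Ugt2b35 read -0.48 on CF, 0.66 on MF, 1.94 on CM and 3.1 on MM, higher in M by 2.20-fold in females and 2.24-fold in males, and higher in males than in females in both groups. Its second probe gave 0.50 and 0.52, under 1.5-fold in both sexes.

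Of the other Ugt members, Ugt2a3, which is expressed in liver and intestine, was 5.87-fold higher in MM than CM (0.01 against -2.55) and lay below CF in MF by 0.58. Ugt2a1, best known from olfactory tissue, read -4.23 on CF (not well above background), -1.30 on MF, -1.57 on CM and -4.08 on MM. Its 2 high arrays were thus a microsomic female and a control male. MF lay 7.60-fold over the dim CF reading and CM 5.69-fold over MM. After normexp with quantile normalization these log2 differences were 1.31 and -1.86. Ugt3a1 was 1.93-fold lower in MF. Ugt8a, which makes galactosylceramide, was at least 2.72-fold higher in MM than CM, where it was not well above background, and 0.72 on the log2 scale after normexp with quantile normalization.

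Ugt1a transcripts share their last exons, and Ugt1a1, the bilirubin-conjugating form, has no probe under its name here. The brightest Ugt1a6b probe without a flag differed by -0.09 in females and 0.02 in males. A flagged probe under the name Ugt1a6b, at high signal, differed by -0.35 and 0.37. The annotation places it (chr1:90115493-90115552) near the Ugt1a6a probe and away from the unflagged Ugt1a6b probe (chr1:90004249-90004308). Which Ugt1a transcripts it reads was not tested. Ugt1a6a was well above background on MF and MM only, at least 1.55-fold over CF. The probes of Ugt1a10 disagreed in sign in both sexes (0.95 and -0.24 in females, 0.42 and -0.79 in males), so no direction can be given.

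Of the Gst alpha genes, Gsta1, Gsta2 and Gsta4 were higher in M in both sexes. Gsta2 read -3.51 on CF, -0.01 on MF, -3.09 on CM and -0.86 on MM, 11.3-fold higher in MF than CF and 4.69-fold higher in MM than CM. Gsta1 read -5.25 on CF, -2.29 on MF, -5.54 on CM (not well above background) and -2.63 on MM, 7.78-fold and at least 4.15-fold higher. After normexp with quantile normalization the log2 differences of Gsta2 were 2.03 in females and 1.43 in males, and those of Gsta1 were 1.5 and 1.43, lower than here by over 1.5 times on the fold scale. Both M arrays lay above both C arrays, and the probes of these genes can bind each other's transcripts, as shown above. Gsta1 and Gsta2 are known targets of the antioxidant factor Nrf2 (Nfe2l2), and Gsta4 conjugates the lipid peroxidation product 4-hydroxynonenal.

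Gsta4 was read at 10 spots by a probe across an intron (chr9:78046172-78047344).
Gsta4: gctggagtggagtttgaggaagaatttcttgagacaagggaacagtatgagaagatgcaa
Its level was 0.29 ± 0.21 on CF, 1.32 ± 0.12 on MF, 0.53 ± 0.19 on CM and 1.21 ± 0.17 on MM (SD over 10 spots of 1 array, not over animals). M exceeded C 2.04-fold in females and 1.60-fold in males, more than the spot SD in both. Gsta3, with levels between 6.81 and 7.40, was only just past 1.5-fold in MF (0.59), and this was 0.56 with the mean over its probes and turned to -0.20 after quantile normalization and -0.24 after normexp with quantile normalization.

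Gst mu genes were higher in MF in 3 of 6 (Gstm1, Gstm2 and Gstm3) and lower in none. Gstm3 read 1.74 on CF, 3.14 on MF, 1.88 on CM and 2.58 on MM, 2.64-fold higher in MF than CF and 1.62-fold in MM than CM, and its second probe gave 2.22 and 1.03. With the position trend removed the male difference was 0.37, under 1.5-fold. Gstm1 was 2.48-fold higher in MF, while its probes disagreed in sign in males (0.49 and -0.28). The annotation places the second of these probes on chromosome 5, and the brightest on chromosome 3 with the other Gst mu probes. Gstm2 was 1.72-fold higher in MF and 1.86-fold lower in MM, with the same signs by all 3 of its probes. The female call was lost with the mean over its probes (0.55) or the position trend removed (0.56), and the male call without scaling (-0.34). Gstm4, Gstm6 and Gstm7 differed by less than 1.5-fold in both sexes by their brightest probes. In females the second probe of Gstm4 gave 0.93, and the 10-spot probe of Gstm7 gave 0.67, both past 1.5-fold. No pair of Gst mu probes of different genes reached the identity given above.

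Gstp1, a Gst pi gene, read 5.40 on CF, 7.31 on MF, 4.97 on CM and 5.28 on MM, so that MF alone was high, 3.75-fold over CF. This log2 difference of 1.91 was 1.17 with quantile normalization and 0.96 with normexp and quantile normalization. This probe lies across an intron (chr19:4035908-4036723).
Gstp1: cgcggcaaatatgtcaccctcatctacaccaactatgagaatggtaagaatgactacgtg
A second Gstp1 probe gave 1.0 in females and 0.46 in males. The copy Gstp2 differed by 0.37 in females by its brightest probe and by 1.30 by its second probe. The MF array, on which Gstp1 was high, also held the higher intestine genes. Against CF, MF was higher in Vil1 (4.38), Muc13 (3.70), Lgals4 (3.53), Fabp2 (3.15), Krt20 (2.66), Phgr1 (0.84) and Tff3 (0.35). Cdh17 was at least 5.51 higher. In males Fabp2 was higher too (2.38). Phgr1 was at 0.49, Krt20 at 0.39, Tff3 at -0.20, Muc13 at -0.32, Lgals4 at -0.83 and Vil1 at -1.24. Sis gave no fold in females and -0.75 in males, and Reg3g was not well above background anywhere. Fabp2 was thus higher in M in both sexes, as were Gsta1 and Gsta2, and a link was not tested.

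The theta, omega, kappa and zeta classes showed no common direction. Gstt3 was higher in M in both sexes (1.64-fold and 2.51-fold), and Gstt2 in males (2.58-fold). Gstt1 read 5.13 on CF, 6.32 on MF, 4.82 on CM and 4.21 on MM, 2.28-fold higher in MF and 1.52-fold lower in MM. Its probe is rich in pyrimidines, with 4 stretches of 5 bases that lack A and G and hold 3 or more C, and one alternative left such probes out. The female call was lost with quantile normalization (0.58) and normexp with quantile normalization (0.47), and the male call with centring on the median (-0.37) and without scaling (-0.05). Gsto2 was 2.21-fold lower in MF and 1.68-fold higher in MM, Gsto1 was 1.59-fold higher in MM (under 1.5-fold with the position trend removed, 0.41), and Gstt4 was well above background on CM alone. Gstk1 and Gstz1 stayed within 1.5-fold in both sexes.

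Females and males were then set side by side, in comparisons that share no array. Of 47 members compared in both, 7 (14.9%) passed 1.5-fold the same way, where 6.98% of all genes did. Gsta1, Gsta2, Gsta4, Gstm3, Gstt3 and Ugt2b35 were higher in M (6 members, against 3.19% of all genes) and Sult1e1 was lower (1 member, against 3.8%). Another 11 (23.4%) passed in opposite ways, where 9.85% of all genes did. Gsto2, Sult2a1, Sult2a3, Sult2a4, Sult2a6 and Ugt2b1 were lower in MF and higher in MM (6 members, against 4.04% of all genes), and Gstm2, Gstt1, Sult2b1, Sult3a1 and Ugt2a1 the reverse (5 members, against 5.81%). The members counted are not all separate readings. Gsta1 and Gsta2, and likewise Sult2a1 and Sult2a4, have near-identical probes that may bind the same transcript. Past 1.5-fold under every alternative to scaling, filter, probe choice and trends that gave a value were 5 of the 7 (not Gstm3 and Sult1e1) and 6 of the 11 (not Gstm2, Gstt1, Sult2a3, Sult3a1 and Ugt2b1). These 11 were not tested for a difference between the sexes, since each sex has 1 pair of arrays.

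**Figure D4:**
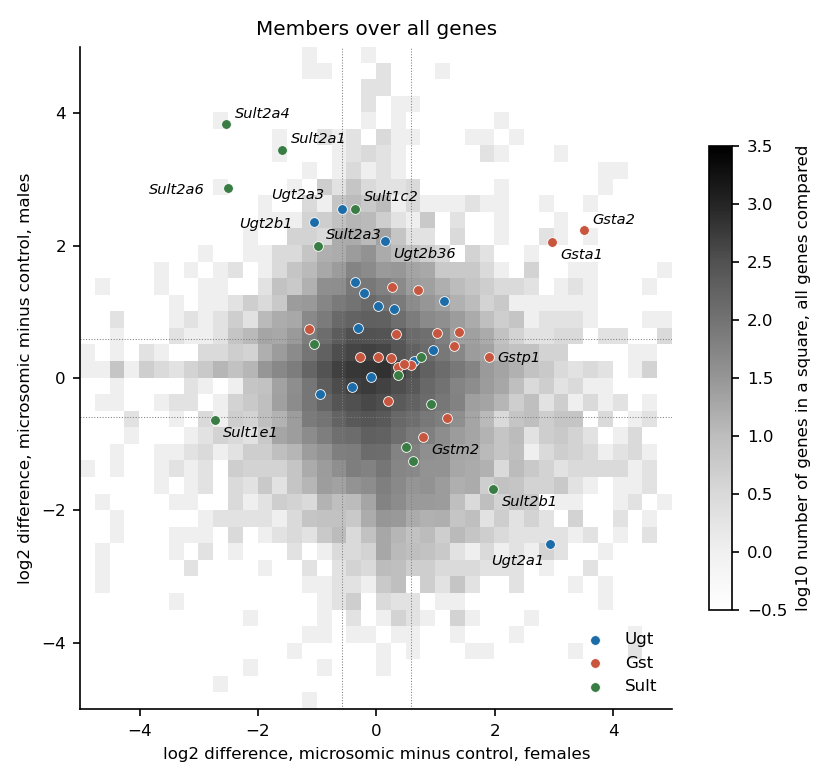
Log2 difference, microsomic minus control, in females (x axis) and males (y axis) for the members (coloured by family; bounds included) over all 23967 genes compared in both sexes (grey, log10 number of genes per square of 0.25; 63 genes beyond 5 on either axis are not drawn). Dotted lines mark 1.5-fold; the Sult2a genes lie at the upper left, Gsta1 and Gsta2 at the upper right and Ugt2a1 and Sult2b1 at the lower right.

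Across sexes, 15 of 48 members (31.2%) lay more than 1.5-fold apart in CM vs CF, 11 higher and 4 lower in males, where 46.3% of all genes did (26.6% higher, 19.7% lower). In MM vs MF, 30 of 48 (62.5%) did, 20 higher and 10 lower in males, against 49.5% of all genes (28.9% higher, 20.5% lower). These comparisons reuse the arrays above. The direction of the control split depends on the scaling, with 6 higher and 15 lower after centring on the median, which also moved the share of higher among all genes past 1.5-fold from 57.5% to 30.5%, 13 and 10 after normexp with quantile normalization, and 10 and 6 without scaling. In MM vs MF, centring on the median gave 19 higher and 16 lower, with the share of higher among all such genes going from 58.5% to 38.5%. MM exceeded MF 74.4-fold in Sult2a4, 59.8-fold in Sult2a6, 22.9-fold in Sult2a1, 18.9-fold in Sult2a3, 17.3-fold in Sult1c2 and 14.1-fold in Ugt2b1. In controls the sexes differed by -0.15 in Sult2a4, 0.52 in Sult2a6, -0.52 in Sult2a1 and 0.41 in Ugt2b1, all under 1.5-fold with this scaling. Sult2a3 (1.25) and Sult1c2 (1.20) were past 1.5-fold higher in CM than CF. The control calls of the 4 Sult2a genes also depend on the scaling. After centring on the median 1 was higher and 1 lower (-0.94), as without scaling (-0.63). With quantile normalization, alone or after normexp, 2 were higher.

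Genes that supply the conjugating groups are given as counts, to be read against the 40.9% (females) and 40.8% (males) of all genes past 1.5-fold. The shares past it were 0% and 40% for glucuronic acid supply, 50% and 41.7% for the glutathione list and 22.2% and 44.4% for the sulfate list. By direction, 19.9% of all genes were higher and 21.1% lower in females, and 17.7% higher and 23.1% lower in males. Of 5 genes for glucuronic acid supply, none passed 1.5-fold in females and 2 were higher in MM, the nucleotide-sugar transporters Slc35d1 (0.69) and Slc35d2 (0.86). Ugdh, which makes UDP-glucuronic acid, differed by 0.49 and 0.45. Of 12 genes for glutathione supply and other glutathione transferases, 5 were higher and 1 lower in MF, and 4 were higher and 1 lower in MM. Gss, the glutathione synthase, was higher in both (0.74 and 0.80), glutathione reductase Gsr read 4.34 on CF, 6.54 on MF, 4.24 on CM and 4.74 on MM, and Cth, of cysteine synthesis, was lower in MF (-1.24). Of 9 genes around the sulfate donor, 2 were lower in MF, among them the PAPS synthase Papss2 (-0.78), and 3 were higher and 1 lower in MM, among them the other PAPS synthase, Papss1 (0.89).

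Of 10 genes of other conjugations, 3 were higher and 2 lower in MF, and of 9 compared in males 3 were higher and 2 lower in MM, which makes 50% and 55.6% past 1.5-fold beside 40.9% and 40.8% of all genes. The methyltransferase Nnmt was lower in both sexes (-2.48 and -1.83) and Inmt higher in both (1.53 and 1.78). Glyat, the glycine N-acyltransferase, read -0.92 on CF, -1.74 on MF, -0.71 on CM and 1.12 on MM, the order seen for Sult2a. Of 17 regulators of these enzymes, 4 were higher and 3 lower in MF, and 7 were higher and 1 lower in MM. These 41.2% and 47.1% past 1.5-fold either way lie near the same shares of all genes. By direction the regulators past it in MM were mostly higher, where 17.7% of all genes were higher and 23.1% lower. In females 19.9% of all genes were higher and 21.1% lower. Nfe2l2 differed by -0.52 in females and 0.65 in males, the pregnane X receptor Nr1i2 by -0.92 and 0.05, the constitutive androstane receptor Nr1i3 by -0.35 and 0.45, and Hnf4a by 0.64 and 1.01. Foxa3 differed by 2.31 in females and 0.85 in males, and Cebpa by 2.02 and 0.58.

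A limma model of all 4 arrays in which weight group and sex were the terms, leaving 1 residual degree of freedom, tested a change common to both sexes. Over 19303 genes none had an adjusted p under 0.05 (0 genes, smallest adjusted p 0.964, limma with Benjamini-Hochberg over all genes). Among the 41 members 0 passed, and 4 (9.76%) had an unadjusted p under 0.05, where 4.42% of all genes did. These were Gsta2 (mean log2 difference 2.87 ± 0.47 SE), Ugt2b35 (1.15 ± 0.41), Gstm3 (1.05 ± 0.43) and Gstt3 (1.02 ± 0.43). Without scaling between arrays 1 member passed, of 10 genes in all, at an adjusted p of 0.0228 from limma. Sult2a4, which moves in opposite directions in the sexes, had a mean of 0.65 ± 1.24.

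The Sult2a genes lie together on chromosome 7 and the Ugt2 genes on chromosome 5, beside some Sult1 genes. The 24 other genes within 1000000 bases of the Sult2a cluster had a median log2 difference of 0.22 in males and 0.01 in females. Its 4 members well above background everywhere had 3.16 and -2.05. Of the 24, 10 passed 1.5-fold in males and 11 in females, beside 40.8% and 40.9% of all genes. Higher were 8 in males and 4 in females, beside 17.7% and 19.9% of all genes. For the Ugt2 and Sult1 cluster the male medians were -0.10 over 12 other genes and 1.13 over 10 members. Of the 12, 6 passed 1.5-fold in males (3 higher) and 4 in females (2 higher). Promoters of Sult2a4 (chr7:13989589-13989838, minus strand) and Sult2a6 (chr7:14254871-14255120, minus strand), the 250 bases before the start in RefSeq on GRCm38.p6, are shown because the genes move together. Capitals mark matches of GTTAATNAT, a form of the HNF1 motif, and of TCATGAACT, a string chosen after the sequences were read; both strands were searched and the matches do not overlap.
Sult2a4: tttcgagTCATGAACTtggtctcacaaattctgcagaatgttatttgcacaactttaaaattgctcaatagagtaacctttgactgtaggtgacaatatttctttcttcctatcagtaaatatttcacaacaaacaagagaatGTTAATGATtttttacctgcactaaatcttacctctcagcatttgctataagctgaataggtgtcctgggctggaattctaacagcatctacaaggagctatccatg
Sult2a6: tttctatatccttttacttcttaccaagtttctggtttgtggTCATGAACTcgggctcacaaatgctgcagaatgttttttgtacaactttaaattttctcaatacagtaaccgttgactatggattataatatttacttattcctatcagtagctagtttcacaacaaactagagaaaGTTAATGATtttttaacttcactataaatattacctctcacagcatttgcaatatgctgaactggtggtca
GTTAATNAT was found in 4 of 6 Sult2a promoters and in 0.737% of all 32851 promoters, and TCATGAACT in 3 of 6 and in 0.192%. Since TCATGAACT was chosen after the sequences were read, its share is no test. The printed Sult2a4 and Sult2a6 promoters also resemble each other outside the capitals, so neither share counts separate promoters. The Sult2a holders of GTTAATNAT were Sult2a3, Sult2a4, Sult2a5 and Sult2a6. Sult2a5 is not a member on this array, and Sult2a1, which moved with the others, is not a holder. GTTAATNAT was also found in Sult1d1, Ugt1a1, Ugt1a9 and Ugt1a10, in all 8 of 68 promoters of the 3 families (11.8%). Among 7 Ugt2b promoters neither string was found. TGACNNNGC, the core of the antioxidant response element, was not found in these 250 bases of Gsta1 or Gsta2, and is held by 10.2% of all promoters. A match is a description of the letters only.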

How the data were processed

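Liver RNA of 4 groups (MF, MM, CF, CM; 1 Agilent SurePrint G3 Mouse GE 8x60K array each) had been labelled with Cy3 by the authors and scans quantified with Agilent Feature Extraction 10.7.3.1. The deposited signals are linear intensity values, background-subtracted and detrended but not normalized between arrays; the authors' value table equalled it in all 62976 rows (relative tolerance 0.0001). From it, the log2 of the 75th percentile was subtracted from log2 signals array by array, 1754 spots with an outlier flag were left out, spots of a probe averaged and the brightest probe of each gene taken. Genes were compared when well above background on at least 1 array of a pair. limma 3.58.1 (R 4.3.3) was fitted to all 4 arrays and tested on simulated data; other steps used Python 3.11.15. Array number limits the precision, and nothing says that animals were separate. Alternatives were other scalings, filters, probe choices, a 2-fold threshold, removal of trends with GC content and array position, and 2 other limma models.

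Named genes were members past 1.5-fold in both sexes, the 4 largest rises and falls in each comparison, the 8 brightest members and 8 preset names; other members were added to account for all. The members, lists and rules were chosen with earlier results of these data known. All 53 member names matched RefSeq symbols (GRCm38.p6), and 45 had a promoter.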

Additional observations from a re-analysis of the deposited data

Results flagged for a closer look

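The 11 members past 1.5-fold in opposite ways in the sexes are given as values, because the arrays of each sex moved in opposite directions; the difference between the sexes was not tested. The log2 difference in females was -2.54 in Sult2a4, -2.51 in Sult2a6, -1.59 in Sult2a1, -1.14 in Gsto2, -1.05 in Ugt2b1 and -0.99 in Sult2a3. In males these 6 lay at 3.83, 2.88, 3.45, 0.75, 2.35 and 2.0. The female difference was 2.93 in Ugt2a1 and 1.98 in Sult2b1, both from a CF reading not well above background. It was 1.19 in Gstt1, 0.79 in Gstm2 and 0.61 in Sult3a1. In males these 5 lay at -2.51, -1.68, -0.61, -0.90 and -1.25.

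The probe of Sult2a2 carries an outlier flag on MF and entered no comparison. Its level was 1.30 in MF, 4.83 in MM, 1.84 in CF and 2.43 in CM, with MM 2.40 above CM on the log2 scale, and it shares most of its bases with the probe of Sult2a1.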

How the results depend on the processing

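With 1 array per group no array could be left out. No paired analysis was possible by replicate number because each group has a single sample; sex was a term of the limma model. With 11 alternatives to scaling, filter, probe choice and trends, of 28 members past 1.5-fold in females between 21 and 28 passed the same way where all had a value, and of 30 in males between 25 and 30. Only Gsta3 in females changed sign, to -0.20 with quantile normalization and -0.24 with normexp and quantile normalization. At 2-fold 18 members passed in MF vs CF and 9 in CM vs CF, and 3 passed the same way in both sexes. Normexp with quantile normalization gave 23 in CM vs CF. Without scaling, 19 passed the same way in both sexes, 1 member passed limma, and the medians were 0.67 in females and 1.08 in males. Quantile normalization gave a female median of -0.0617 over the members. The count of members past 1.5-fold in opposite ways was added after seeing the data. The causes were not tested. Signals near background limit the dim members, Sult1c1, Sult2a7, Gstt4, Ugt1a6a and Ugt8a above all. The spot error of 0.32 comes from probes well above background on every array and was not measured for these members.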
